A study of Mus musculus with 4 samples.

Results

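Growth brakes are gene products that slow or stop cell division. A set of 10 genes, of such brakes and of inhibitors of p53, was examined in neural stem cells of the adult mouse brain. It held the tumour suppressor gene Trp53 and its inhibitors Mdm2 and Mdm4, which are not brakes themselves. The others were the anti-proliferative genes Btg1, Btg2, Tob1 and Tob2, and the stress-inducible genes Gadd45a, Gadd45b and Gadd45g. All 10 genes were chosen by gene symbol, with no threshold on their values, and were 10 of 32564 genes and 43 of 99567 transcripts quantified. RNA was sequenced from 4 libraries of 1 group, called aNSC: untreated neural stem cells of the activated EGFR+ subtype, described as Prom1+, EGFR+ and GFAP+, sorted by flow cytometry from 3-month-old gfap:GFP transgenic mice on a CD1/C57BL/6 mixed background. All libraries share the reporter, the background, the age and the sort. How many animals stood behind a library is not in the labels, so SDs and p-values reflect only how far these samples lie apart, which may be technical. The series' design text speaks instead of quiescent cells after aCSF or antagomirs to miR204, which no sample label names. Groups follow the sample labels here, and under the design text the SDs might include an effect of treatment.

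The p53 protein is a transcription factor that halts the cell cycle or starts cell death when DNA is damaged. Mdm2 is a ubiquitin ligase that marks p53 for destruction and is itself a p53 target, which closes a feedback loop, and Mdm4 is a related protein that masks the activation domain of p53. Btg and Tob proteins recruit the Ccr4-Not deadenylase, which shortens poly(A) tails. Btg2 is an early response gene and a p53 target known in the brain as a marker of progenitors about to make neurons. Gadd45 proteins bind Pcna, the Cdk1 and cyclin B1 complex, and the kinase Map3k4 upstream of p38, and Gadd45b has been tied to DNA demethylation in adult hippocampal neurogenesis.

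Of the 12 markers of neural stem cells examined, 12 were above 10 TPM (transcript abundance per length, scaled to the same total in every library), with Egfr at 89.7 ± 23.1, Prom1 at 23.1 ± 7.01 and Gfap at 149 ± 54.4 TPM (mean ± SD, n = 4). Markers of other cells were counted beside them, where 40.5% of all genes tested were above 10 TPM: 5 of 8 oligodendrocyte markers, 7 of 10 microglia markers, 6 of 8 ependymal markers, 8 of 10 neuroblast markers, 3 of 5 erythroid markers and 4 of 8 mature neuron markers were above this level, against 1 of 8 endothelial and mural markers, of which Cdh5 and Kcnj8 had no count. In such bulk samples fewer cells of a type and less RNA per cell cannot be told apart. Depth was 16978938 (library 3) to 23727664 (library 4) estimated counts per library. The 10 genes drew between 197 counts (Gadd45a in library 1) and 11512 counts (Btg2 in library 3).

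Some of the sequences by which transcripts of these genes differ are given first, because the results on isoforms turn on them. The first pair is the coding end of the Trp53 transcripts, on the plus strand of GRCm38: the regular end of Trp53-201 (chr11:69591350-69591431) and the alternative end of Trp53-202 (chr11:69591254-69591308), whose last exon starts 96 bases earlier. Capitals mark the stop codon.
Trp53-201 coding end: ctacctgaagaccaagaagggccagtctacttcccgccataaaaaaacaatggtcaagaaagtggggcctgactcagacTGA
Trp53-202 coding end: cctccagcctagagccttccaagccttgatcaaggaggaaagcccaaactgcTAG

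The next pair is an exon of each inhibitor that a transcript annotated for nonsense-mediated decay, the pathway that removes messages with an early stop codon, leaves out. Neither length, 97 bases in Mdm2 (minus strand, chr10:117695953-117696049) and 68 bases in Mdm4 (minus strand, chr1:133004654-133004721), is a multiple of a codon's length, so its loss shifts the reading frame.
Mdm2-201 exon absent from Mdm2-209: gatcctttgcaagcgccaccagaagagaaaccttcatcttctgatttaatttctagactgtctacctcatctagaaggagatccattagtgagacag
Mdm4-210 exon absent from Mdm4-214: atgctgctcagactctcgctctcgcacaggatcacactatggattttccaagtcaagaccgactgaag

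The last set is taken from the promoters of the Btg and Tob genes, because Btg2 is known as an early response gene and such genes are often searched for elements of CREB and AP-1. In RefSeq's promoter table (GRCm38.p6) the 250 bases before the start were searched on both strands; 10 of 10 genes had a window, 11 windows in all. Btg2 held the cAMP response element TGACGTCA, the full site bound by CREB, which is in 1.55% of 32851 windows. Btg1 and Tob1 held only its core TGACG, which the full element contains and which is in 17.8% of windows. Tob2 held neither the full element nor the core. The match in Btg1 is on the other strand and is printed as its reverse complement. Btg1 held the core at another place too, 187 bases before the start. Capitals mark the match. The Btg2 stretch is chr1:134079278-134079357 on the minus strand with its match 166 bases before the start, that of Btg1 is chr10:96616862-96616938 on the plus strand (103 bases before), and that of Tob1 is chr11:94211322-94211398 on the plus strand (96 bases before).
Btg2: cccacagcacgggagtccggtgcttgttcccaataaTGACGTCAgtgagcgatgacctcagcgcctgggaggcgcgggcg
Btg1: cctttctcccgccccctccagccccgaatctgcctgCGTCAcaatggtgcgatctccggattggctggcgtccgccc
Tob1: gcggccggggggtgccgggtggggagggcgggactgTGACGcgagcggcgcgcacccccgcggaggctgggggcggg

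The p53 half-site, a decamer that p53 binds in pairs, was found in the windows of Trp53, Mdm2 and Gadd45a, and in 7.13% of all windows. The AP-1 motif TGANTCA was found for Mdm4 (6.75% of windows), TATAAA for Trp53, Btg1, Tob1, Gadd45b and Gadd45g (12.4% of windows), and the CArG box for none of the 10 genes (1.47% of windows). The TATAAA of Trp53 was on the other strand, 248 bases before the start. Those of Btg1, Tob1, Gadd45b and Gadd45g were on the gene's strand, 26 to 47 bases before it. A match is a string of letters and not a tested site.

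All 10 genes were expressed. Each was above 10 TPM in every library, and the mean of each was above 10 TPM by limma on log2(TPM + 1) with Benjamini-Hochberg adjustment over 19914 genes; Gadd45a and Mdm4 lost this call under some alternatives given below. The level of 10 TPM lies a little over the median gene tested, at 8.34 TPM, and 40.5% of genes tested were above it and 45.9% below it. All 10 were also above 1 TPM, as were 62.8% of genes. Levels in TPM are per length of transcript, so they can be set beside each other between genes.

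**Figure D1:**
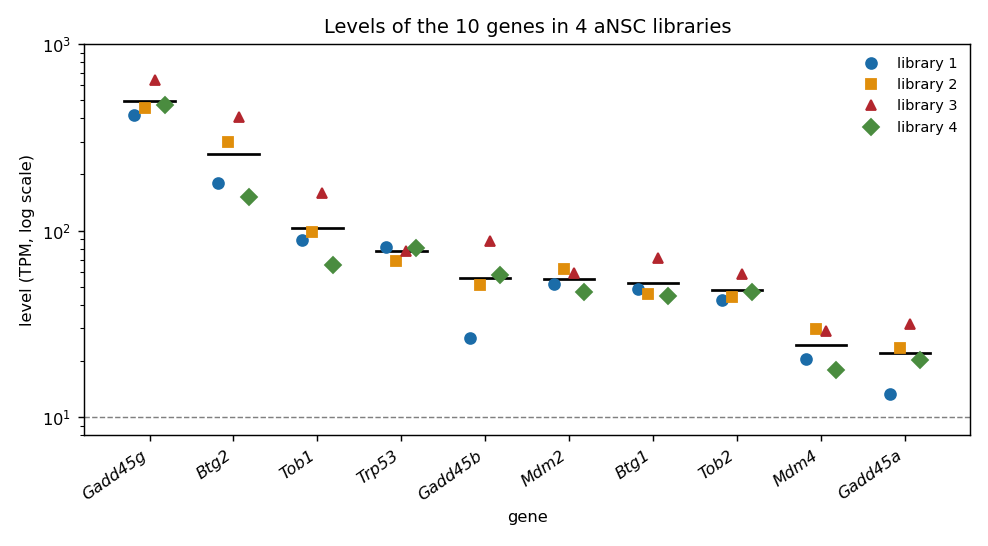
Level of each gene (TPM, logarithmic axis) in the 4 aNSC libraries, 1 symbol per library, with the mean as a bar and 10 TPM as a dashed line. Every symbol lies above the dashed line, Gadd45g is highest in each library, and library 3 (triangles) is the highest symbol for 7 genes.

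Trp53 was the steadiest of the 10 genes. It had 82.1, 68.7, 78.1 and 81.2 TPM in libraries 1 to 4, a mean of 77.5 ± 6.14 TPM (SD, n = 4). Its highest library was only 1.20 times its lowest, and its SD on the log2(TPM + 1) scale, 0.12, was larger than that of only 9.84% of the 9433 genes with a mean of at least 10 TPM. The gene (ENSMUSG00000059552, chr11:69580359-69591873, plus strand) lay 2.83 ± 0.07 (SE) above 10 TPM on the log2(TPM + 1) scale (limma adjusted p = 1.8e-07).

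Mdm2, the ubiquitin ligase of p53, had 51.6, 62.3, 59.6 and 47.2 TPM, a mean of 55.2 ± 6.98 TPM (SD, n = 4). Libraries 2 and 3 were its high ones. The gene (ENSMUSG00000020184, chr10:117688875-117710758, minus strand) lay 2.34 ± 0.09 (SE) above 10 TPM in log2 (limma adjusted p = 1.3e-06).

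Mdm4 had 20.5, 29.9, 28.9 and 18.0 TPM, a mean of 24.3 ± 5.96 TPM (SD, n = 4). Libraries 2 and 3 were again the high ones. The gene (ENSMUSG00000054387, chr1:132959484-133030561, minus strand) lay 1.17 ± 0.16 (SE) above 10 TPM in log2 (limma adjusted p = 0.00051), and with its most abundant transcript alone it lay 0.27 above (adjusted p = 0.16).

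By TPM the inhibitors were both below Trp53 within each library. For Mdm2 this order did not hold with CPM or with the most abundant transcripts, and it held with coding transcripts. Mdm2 was at 0.633, 0.908, 0.766 and 0.586 times Trp53 in libraries 1 to 4, a mean log2 ratio of -0.49 ± 0.28 (SD, n = 4). Mdm4 was at 0.259, 0.444, 0.378 and 0.231 times Trp53, a mean log2 ratio of -1.66 ± 0.44 (SD). The ratio of Mdm4 to Mdm2 varied least, at 0.408, 0.489, 0.493 and 0.394, or -1.17 ± 0.17 in log2 (SD). Libraries 2 and 3 were the high ones for both inhibitors, whereas library 2 was the lowest for Trp53. With 4 libraries an exact two-sided sign-flip permutation test cannot go below p = 0.13, the value each of these ratios had (adjusted p = 0.193 over 17 pairs). The mean log2 ratio of Mdm2 to Trp53 was 0.05 with CPM (counts scaled to a fixed total without length correction). It was 0.21 with only the most abundant transcript of each gene. Both values lay within their spread between libraries. CPM sums the same transcripts as TPM and differs in the length correction. The setting with the most abundant transcript leaves out Trp53-203, which held 37.8% of Trp53 and is shorter than Trp53-201 by 1 base. With CPM, Mdm4 over Trp53 was -0.36 ± 0.35 and Mdm4 over Mdm2 -0.41 ± 0.14.

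**Figure D2:**
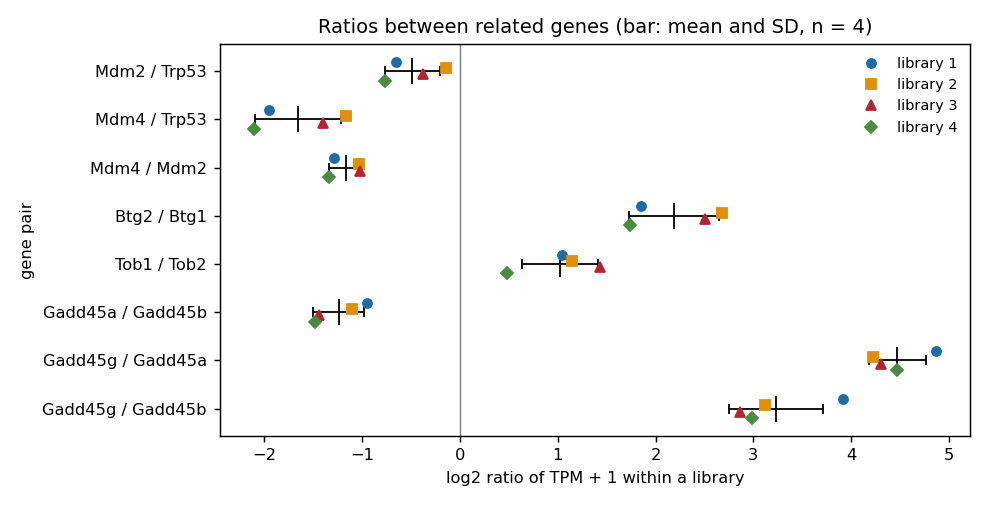
Log2 ratio of TPM + 1 between related genes within each library (horizontal axis), 1 symbol per library, with bars for the mean and SD (n = 4). Every symbol of a pair lies on one side of 0, and the ratio of Mdm4 to Mdm2 has the narrowest bar.

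Trp53 transcripts came almost only from annotated coding forms, which held 97.7, 94.9, 93.7 and 92.7% of its TPM. The regular transcripts Trp53-201 and Trp53-203 held 41.0 ± 21.0% and 37.8 ± 16.3% of the gene (SD, n = 4), and Trp53-202, with the alternative coding end printed above, held 15.9 ± 5.35%. Trp53-203 is contained in Trp53-201 and is shorter by 1 base, so the division of reads between them (Trp53-201 had 73.9, 32.5, 67.7 and 30.2% of the pair) does not separate forms of the message. With regular and alternative transcripts summed, the alternative end, which replaces the basic tail of p53, had 6.80, 11.2, 14.9 and 16.3 TPM in libraries 1 to 4. That was 8.47, 17.2, 20.3 and 21.7% of both ends, against 73.4, 54.0, 58.3 and 59.0 TPM for the regular end. Library 1 was thus the lowest for the alternative end and the highest for the regular one. The groupings of transcripts by form were chosen after their values were seen.

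Mdm2 was spread over 9 transcripts. The main coding transcript Mdm2-201 held 68.6, 53.7, 62.6 and 58.7% of the gene's TPM (60.9 ± 6.32%, SD, n = 4), and 74.3% of its estimated counts. Mdm2-209, the form that skips the 97-base exon, held 6.90, 10.1, 13.6 and 15.7% (11.6 ± 3.86%). Of Mdm2-201 and Mdm2-209 together, the skipped form was 9.13, 15.8, 17.8 and 21.1%, lowest in library 1 and highest in library 4. Transcripts whose 5′ end lies at the second exon (Mdm2-206 and Mdm2-209), the region where the p53-responsive internal promoter of Mdm2 is known to lie, had 10.5, 11.8, 12.2 and 11.7 TPM, 21.1 ± 2.51% of the gene. The summed level of these forms differed less between libraries than that of the whole gene. Each form alone was not as steady. Mdm2-206 had 6.90, 5.47, 4.17 and 4.27 TPM in libraries 1 to 4, highest in library 1. Mdm2-209 had 3.56, 6.29, 8.08 and 7.39 TPM, lowest in library 1.

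Mdm4 had 14 transcripts in the index, of which 2 (Mdm4-202 and Mdm4-208) were listed at 0 in every library. The main coding transcript Mdm4-210 held 61.3, 51.8, 45.4 and 49.2% of the gene's TPM (51.9 ± 6.78%, SD, n = 4). It held 86.4% of the gene's estimated counts, since at 7105 bases it is the longest Mdm4 transcript. The others are 467 to 4694 bases long and had fewer reads. Mdm4-214, which skips the 68-base exon printed above, had 0.988, 1.44, 1.51 and 1.49 TPM. A skip of this kind is known to make the short form Mdm4-S, whose message yields little protein. Of Mdm4-210 and Mdm4-214 together, the skipped form was 7.30, 8.49, 10.3 and 14.4%, again lowest in library 1 and highest in library 4. As a share of the whole gene Mdm4-214 was 4.82, 4.81, 5.22 and 8.25%, with library 4 still highest and libraries 1 and 2 alike.

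**Figure D3:**
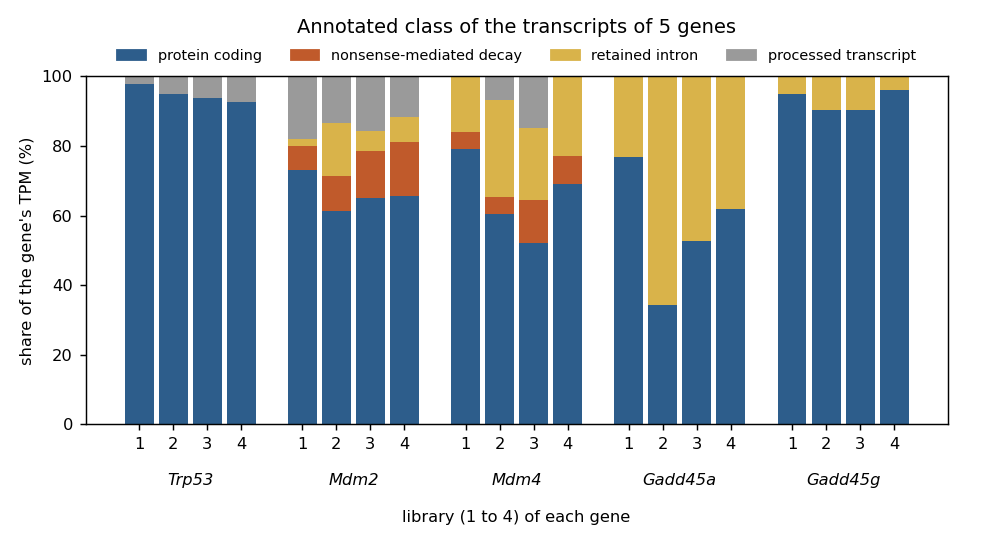
Share of each gene's TPM (%) by annotated class of its transcripts in libraries 1 to 4, for the 5 genes with more than 1 transcript in the files. Coding transcripts fill over 92% of Trp53 in each library and between 34.2 and 76.9% of Gadd45a.

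Btg2 was the second most abundant of the 10 genes and one of the most variable. It had 179, 298, 406 and 152 TPM in libraries 1 to 4, a mean of 259 ± 117 TPM (SD, n = 4). Libraries 2 and 3 were high and libraries 1 and 4 low, with no overlap between those pairs. The SD of 0.65 in log2 was larger than that of 96.2% of genes of at least 10 TPM. The gene (ENSMUSG00000020423, chr1:134075170-134079120, minus strand) lay 4.45 ± 0.24 (SE) above 10 TPM in log2 (limma adjusted p = 5.8e-06).

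Btg1, its closest relative, had 48.9, 45.7, 71.1 and 44.8 TPM, a mean of 52.7 ± 12.4 TPM (SD, n = 4). Libraries 1, 2 and 4 lay close together and library 3 stood above them. The gene (ENSMUSG00000036478, chr10:96617006-96622809, plus strand) lay 2.26 ± 0.13 (SE) above 10 TPM in log2 (limma adjusted p = 7.5e-06), and 2.11 above without library 3. Btg2 was 3.61, 6.39, 5.64 and 3.34 times Btg1 within libraries 1 to 4, a mean log2 ratio of 2.19 ± 0.46 (SD, n = 4, exact p = 0.13, the smallest possible), which was 1.30 ± 0.46 with CPM.

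Tob1, which like Btg2 recruits the deadenylase and is known to restrain proliferation, had 88.9, 98.8, 159 and 65.7 TPM, a mean of 103 ± 39.8 TPM (SD, n = 4). Library 3 was highest and library 4 lowest. The gene (ENSMUSG00000037573, chr11:94211454-94215495, plus strand) lay 3.17 ± 0.20 (SE) above 10 TPM in log2 (limma adjusted p = 1.2e-05). Its SD of 0.52 in log2 was larger than that of 91.7% of genes of at least 10 TPM.

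Tob2, its relative, was steadier, with 42.6, 44.1, 58.6 and 46.7 TPM and a mean of 48.0 ± 7.24 TPM (SD, n = 4). The gene (ENSMUSG00000048546, chr15:81848272-81858796, minus strand) lay 2.14 ± 0.10 (SE) above 10 TPM in log2 (limma adjusted p = 2.8e-06). Tob1 was 2.06, 2.21, 2.69 and 1.40 times Tob2 within the libraries, a mean log2 ratio of 1.02 ± 0.39 (SD, n = 4, exact p = 0.13), which was 0.19 ± 0.39 with CPM and so within its spread. Each of Btg1, Btg2, Tob1 and Tob2 had 1 transcript in the files, so no isoforms could be compared. The antisense gene Gm49476, which overlaps Tob2, was not in the index, and the kit's reads were not taken as stranded, so reads of the pair cannot be told apart.

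Of the other Btg genes, Btg3 was at 3.70 ± 1.22 TPM (SD, n = 4) and was called below 10 TPM, and Btg4 had no count. Among 17 partners of Btg and Tob in deadenylation, 11 were above 10 TPM and 2 below (0 below without library 1, 3 or 4). Over all genes tested, 40.5% were above and 45.9% below. The list median was 28.6 TPM, against 8.34 TPM over all genes tested. The highest were Prmt1, an arginine methyltransferase first found as a Btg1 and Btg2 partner, at 163 ± 8.42 TPM, the deadenylase subunit Cnot7, which Btg and Tob proteins bind directly, at 76.7 ± 8.48 TPM, the poly(A)-binding protein gene Pabpc1 at 75.5 ± 11.7 TPM, and the catalytic subunit Cnot6 at 57.7 ± 11.2 TPM. The lowest were Cnot6l, a close relative of Cnot6, at 5.85 ± 1.59 TPM and Pabpc4 at 4.95 ± 2.85 TPM (SD, n = 4 for each).

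Gadd45g was the most abundant of the 10 genes by TPM, and Btg2 by CPM. Gadd45g had 418, 455, 645 and 469.6 TPM in libraries 1 to 4, a mean of 497 ± 101 TPM (SD, n = 4). Library 3 was highest and the others lay within a narrow range. The gene (ENSMUSG00000021453, chr13:51846678-51848468, plus strand) lay 5.48 ± 0.11 (SE) above 10 TPM in log2 (limma adjusted p = 7.7e-08). Its coding transcript Gadd45g-201 held 93.0 ± 3.04% of its TPM, and a transcript with a retained intron held 6.99 ± 3.04%.

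Gadd45b had 26.6, 51.3, 87.7 and 58.2 TPM, a mean of 56.0 ± 25.1 TPM (SD, n = 4). It was the most variable of the 10 genes: library 1 was low, library 3 high, and the SD of 0.70 in log2 was larger than that of 97.1% of genes of at least 10 TPM. The gene (ENSMUSG00000015312, chr10:80930073-80932204, plus strand) lay 2.25 ± 0.26 (SE) above 10 TPM in log2 (limma adjusted p = 0.00026).

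Gadd45a, a p53 target induced by DNA damage, had the lowest mean of the 10 genes, though not beyond its spread from Mdm4. It had 13.3, 23.4, 31.8 and 20.2 TPM from 197, 241, 285 and 279 estimated counts, a mean of 22.2 ± 7.67 TPM (SD, n = 4). Library 1 was lowest and library 3 highest, as for Gadd45b. The gene (ENSMUSG00000036390, chr6:67035096-67037457, minus strand) lay 1.01 ± 0.20 (SE) above 10 TPM in log2 (limma adjusted p = 0.0038). The difference was 0.23 (limma adjusted p = 0.33) with CPM, set against 10 CPM. It was 0.18 (limma adjusted p = 0.42) with coding transcripts only.

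Much of the Gadd45a signal was assigned to transcripts with a retained intron. The coding transcript Gadd45a-201 had 10.2, 8.02, 16.8 and 12.5 TPM, which was 76.9, 34.2, 52.7 and 61.9% of the gene in libraries 1 to 4. The 4 retained-intron transcripts held the rest, 43.6 ± 17.9% (SD, n = 4), of which Gadd45a-203 held 20.2 ± 3.02%. By estimated counts Gadd45a-201 held 70.7% of the gene and Gadd45a-203 held 13.5%. Library 2 thus had more intron-bearing than coding TPM and library 1 the least. The transcripts Gadd45a-206 and Gadd45a-207 were listed at 0 in every library, where 3 counts would have been at most 0.916 and 0.494 TPM (counting error only). The antisense gene E230016M11Rik overlaps Gadd45a and was not in the index, so reads from it cannot be told apart from those of Gadd45a.

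Within each library Gadd45g was 29.3, 18.7, 19.7 and 22.2 times Gadd45a, a mean log2 ratio of 4.47 ± 0.29 (SD, n = 4). It was 15.2, 8.72, 7.28 and 7.95 times Gadd45b, a mean log2 ratio of 3.23 ± 0.48 (SD). Gadd45a was at 0.517, 0.467, 0.369 and 0.357 times Gadd45b, or -1.24 ± 0.26 in log2 (SD). The order of the 3 paralogs was thus the same in all 4 libraries, and each ratio had the smallest possible exact p of 0.13.

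Among 20 genes of Gadd45 partners, of DNA demethylation and of the p38 and JNK kinase routes, 14 were above 10 TPM and 2 below (1 below without library 1 or without library 3). Over all genes tested, 40.5% were above and 45.9% below. The list median was 21.2 TPM, against 8.34 TPM over all genes tested. The highest were the replication clamp gene Pcna at 195 ± 8.36 TPM, the mitotic cyclin gene Ccnb1 at 135 ± 46.9 TPM, the mitotic kinase gene Cdk1 at 124 ± 18.5 TPM and Map2k7, a kinase of the JNK route that Gadd45b is known to inhibit, at 45.7 ± 5.47 TPM. The lowest were the JNK gene Mapk8 at 4.45 ± 2.23 TPM and the p38 delta gene Mapk13 at 0.836 ± 1.05 TPM (SD, n = 4 for each).

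Of 22 relatives and regulators of p53, 12 were above 10 TPM and 3 below, with a median of 19.3 TPM, where 40.5% of all genes tested were above and 45.9% below. The highest were Rpl11, a ribosomal protein that can bind Mdm2, at 109 ± 9.89 TPM, the deubiquitinase gene Usp2 at 83.6 ± 23.0 TPM, the p53 kinase gene Hipk2 at 80.6 ± 10.7 TPM and the ubiquitin ligase gene Cop1 at 77.9 ± 13.5 TPM. The lowest were the p53 relative Trp63 at 1.43 ± 0.600 TPM and Cdkn2a, which encodes the Mdm2 inhibitor Arf, at 0.210 ± 0.246 TPM (SD, n = 4 for each). Of 26 p53 target genes, 12 were above 10 TPM and 5 below, with a median of 13.6 TPM, so the share above was near the 40.5% of all genes. Rps27l at 206 ± 16.4 TPM, the pro-death gene Bax at 153 ± 9.31 TPM, Ei24 at 84.8 ± 2.79 TPM and the stress gene Sesn1 at 66.2 ± 19.9 TPM were highest. The pro-death genes Pmaip1 at 1.18 ± 1.31 TPM and Tnfrsf10b at 0.586 ± 0.325 TPM were lowest. With CPM, 19 of the 26 target genes were above the level of 10.

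By mean TPM the order of the 10 genes was Gadd45g, Btg2, Tob1, Trp53, Gadd45b, Mdm2, Btg1, Tob2, Mdm4 and Gadd45a. Only 3 neighbouring steps of this order went beyond the spread between libraries, with the first gene above the second in 4 of 4 libraries: Gadd45g over Btg2 (mean log2 ratio 1.03 ± 0.48, SD), Btg2 over Tob1 (1.28 ± 0.24) and Tob2 over Mdm4 (0.97 ± 0.32). Each had the smallest possible exact p of 0.13. Gadd45g over Btg2 turned to -0.49 ± 0.50 with CPM. The 6 other steps lay within the spread: from Tob1 through Trp53, Gadd45b, Mdm2 and Btg1 to Tob2, and between Mdm4 and Gadd45a. With CPM, each of these 6 pairs differed in one direction in 4 of 4 libraries (exact p = 0.13 each): Mdm4 over Gadd45a was 2.39 ± 0.44, Gadd45b over Mdm2 -1.18 ± 0.66 and Mdm2 over Btg1 -0.92 ± 0.27, and the others were 0.45 to 1.13. By TPM, Gadd45b and Mdm2, for example, were 0.525, 0.825, 1.47 and 1.23 to 1 in libraries 1 to 4.

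The 10 genes did not vary alike between libraries. Their median SD in log2 was 0.33, against 0.25 over the 9433 genes of at least 10 TPM. Gadd45b, Btg2, Tob1 and Gadd45a each varied more than 9 in 10 of those genes, and Trp53 less than 9 in 10.

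Library 3 was above the mean of the other libraries for 10 of 10 genes (9 with TMM scaling or DESeq2 size factors), against 68.8% of genes of at least 10 TPM. It was the highest library for 7 of them (Btg1, Btg2, Tob1, Tob2, Gadd45a, Gadd45b and Gadd45g), against 38.6% of genes. The median difference of library 3 from the others was 0.56 in log2 over the 10 genes, against 0.15 over genes of at least 10 TPM. For Trp53 this difference was near 0, and library 1 was its highest library. Library 3 also had the fewest estimated counts (16978938) and the largest scaling factors (1.065 by TMM and 1.076 by DESeq2). The part of depth in these differences was not tested.

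Library 1 was above the mean of the others for 1 gene (Trp53), library 2 for 5 genes and library 4 for 2 genes. This was against 44.0, 40.2 and 52.3% of genes. Library 1 was lowest for 4 genes (Tob2, Gadd45a, Gadd45b and Gadd45g) and library 4 for 5 (Mdm2, Mdm4, Btg1, Btg2 and Tob1), against 30.0% and 24.1% of genes of at least 10 TPM. Libraries 2 and 3 were both above libraries 1 and 4 for Mdm2, Mdm4, Btg2, Tob1 and Gadd45a, 5 of the 10 genes, as for 19.7% of genes of at least 10 TPM. The count for library 4 was 5 without library 3 and 1 without library 1, that for library 1 was 3 without library 3, and that for library 2 was 3 without library 1.

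**Figure D4:**
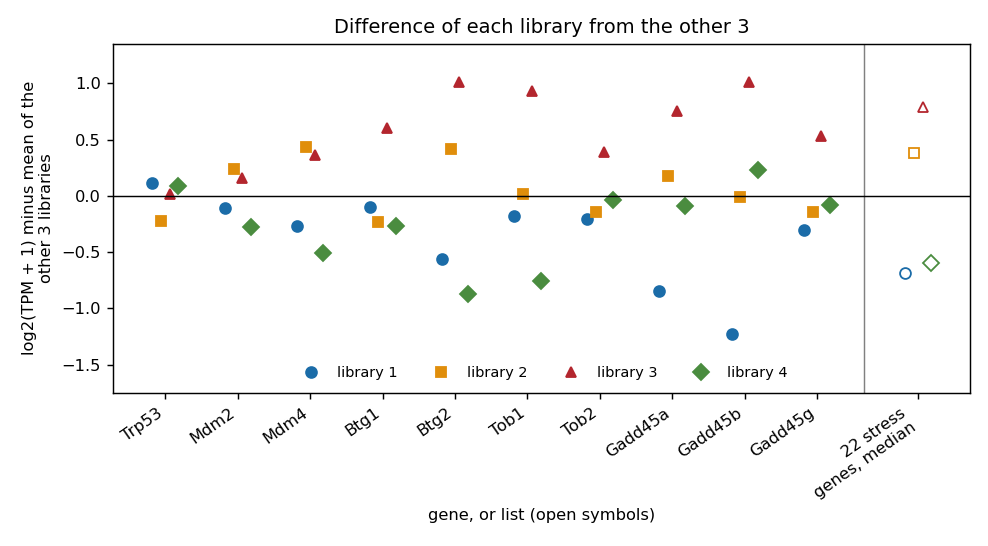
Difference of each library from the mean of the other 3 in log2(TPM + 1), for each gene and, in open symbols, for the median of 22 immediate early and dissociation stress genes. Library 3 (triangles) lies above 0 for 10 of 10 genes by TPM (9 with TMM scaling), and libraries 2 and 3 stand above 1 and 4 for Mdm2, Mdm4, Btg2, Tob1, Gadd45a and the stress genes.

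A list of 22 immediate early and dissociation stress genes, which cells are known to induce within minutes of being taken from tissue, was high in these libraries. Of these genes 19 were above 10 TPM and 1 below, where 40.5% of all genes tested were above and 45.9% below. Their summed level was 5821, 7814, 10655 and 4916 TPM in libraries 1 to 4. Their median difference from the other libraries was -0.69, 0.38, 0.79 and -0.60 in log2, and 16 of 22 were highest in library 3. Btg2 and Tob1 had the same order of libraries as the summed level of this list (3, 2, 1, 4). By its median difference the order of the list was 3, 2, 4, 1, which was that of Gadd45a. The pattern of library 3 above 2 above both 1 and 4 covers both orders. It was found in 3 of the 10 genes (Btg2, Tob1 and Gadd45a) and in 12.3% of genes of at least 10 TPM. The share of genes with either exact order was not counted. The part of this list in the levels of the 10 genes was not tested.

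Markers of other cells also differed between the libraries. Summed levels in libraries 1 to 4 were 732, 2009, 1802 and 2351 TPM for oligodendrocyte markers, 193, 413, 594 and 552 TPM for microglia markers and 601, 1211, 795 and 997 TPM for ependymal markers. Neuroblast markers had 494, 346, 352 and 284 TPM, and endothelial and mural markers 41.4, 24.8, 43.4 and 36.3 TPM. Erythroid markers had 59.9, 641, 449 and 2342 TPM. Library 1 was lowest in oligodendrocyte, microglia, ependymal and erythroid markers, and it was also lowest for the 3 Gadd45 genes and Tob2, as for 30.0% of genes of at least 10 TPM. Mature neuron markers, in which library 1 was highest, had 1303, 1060.0, 1049.8 and 1111 TPM. Stem cell markers had 3378, 3085, 4210.4 and 3585 TPM, with library 3 highest as for 7 of the brakes. The part of these cells in the levels of the 10 genes was not tested.

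The genes whose 4 library values were most like those of the most variable brakes were found by the distance between deviations from each gene's own mean of log2(TPM + 1), among 9432 genes of at least 10 TPM and over 4 libraries. Nearest to Btg2 were Sfi1, Spty2d1 and Lypd6 (distance 0.10 each), the heat shock gene Dnajb1 (0.11) and the immediate early gene Ccn1 (0.13). Nearest to Tob1 were Fos (0.10), the immediate early gene at 2096 TPM, then Hdac6 (0.12), Dyrk1a, Prdm16 and Gm3435 (0.13 each). Nearest to Gadd45b were Ccdc84 (0.16), the growth factor gene Hbegf (0.18), Tnfaip6 (0.18), Nudt22 (0.24) and the chaperone gene Dnaja4 (0.25). With only 4 libraries, closeness of this kind is shared by many genes: Tob1 ranked 91 in closeness to Btg2, and Gadd45a ranked 57 in closeness to Gadd45b.

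Near-identical copies took few reads from these genes. The pseudogenes Trp53-ps, Btg1-ps1 and Btg1-ps2 were listed at 0 in every library, and Mdm4-ps averaged 0.157 TPM.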

How the data were processed

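The tools named are kallisto and sleuth and the build is mm10, per the submitters' processing notes. Neither tool versions nor a transcript release was given in the sources used here. Per the labels' protocols, cDNA came from the SMART-Seq v4 kit for very low input and was read as pairs on an Illumina HiSeq. The deposited files give an estimated count per transcript, in which kallisto divides reads shared by several transcripts, and TPM, deposited as counts over effective length scaled to a fixed total. TPM is relative, so more RNA of a few genes lowers all others.

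TPM was summed per gene with GENCODE M21 (GRCm38, the assembly mm10 names): 98294 of 99567 transcripts matched, and the other 1273 (0.530 to 0.619% of counts, 2.59 to 4.56% of TPM) were left out. The mean of log2(TPM + 1) was tested against 10 and 1 TPM with limma 3.58.1 (R 4.3.3, trend, two-sided, adjusted p under 0.05 over 19914 genes with a count), tested first on simulated data. Ratios within libraries were tested by exact sign-flip permutation over 17 pairs. Isoforms and library differences were described without a test. No 2 libraries were alike enough to be 1 library deposited again: of their transcripts, at most 130 had the same count above 0.

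Genes and lists were chosen with earlier results of these data known. Named were the 10 genes, transcripts of at least 10% of a gene, the 4 highest and 2 lowest of each pathway list, all of lists of 5 or fewer, and the 5 nearest genes to each of the 3 most variable members. Alternatives were TPM rescaled over nuclear coding genes, TMM scaling, DESeq2 1.42.0 size factors, CPM, coding or most abundant transcripts only, and a pseudocount of 0.1. Others were a minimum mean of 5 counts, edgeR 4.0.16 on rounded counts with length and TMM offsets, and each library left out. The F statistic for edgeR was computed separately from its quasi-likelihood fit, against a mean fixed at the tested level.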

Additional observations from a re-analysis of the deposited data

Results flagged for a closer look

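Of 87 sets of 4 library values examined with Dixon's test, 3 had a library farther from the others than its critical value allows, a rate below the 1 in 20 that chance gives. In each, library 3 stood above the rest. Btg1 had 71.1 TPM in library 3 and 44.8 to 48.9 TPM in the others, a gap of 0.843 of the whole range. The summed level of p53 relatives and regulators was 764 TPM in library 3 and 634 to 642 TPM in the others (0.938 of the range). That of the deadenylation partners of Btg and Tob was 709 TPM in library 3 and 666 to 670.3 TPM in the others (0.900 of the range).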

How the results depend on the processing

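The number of the 10 genes above 10 TPM was 8 to 10 over 13 alternatives. It was 10 with an F test built on edgeR's quasi-likelihood fit and with each library left out. Gadd45a kept its call only narrowly without library 2 (0.97, limma adjusted p = 0.050). Mdm4 missed the threshold with its most abundant transcript only (0.27, limma adjusted p = 0.16). Gadd45a missed it with CPM (0.23), coding transcripts (0.18) and its most abundant transcript (0.18). With CPM the level was 10 CPM, which is not the same threshold as 10 TPM. The number of genes for which library 3 was above the mean of the others was 8 to 10. That for library 1 was 3 with coding or most abundant transcripts only and 1 to 3 with a library left out, where that for library 2 was 3 to 7 and that for library 4 was 1 to 5.

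Ratios turned round where length or transcript choice matters. Mdm2 over Trp53 was 0.05 with CPM and 0.21 with the most abundant transcript, and Gadd45g over Btg2 was -0.49 with CPM. Trp53 over Gadd45b was -0.82 with the most abundant transcript, a setting that leaves out Trp53-203. Gadd45b over Mdm2 was 0.49 with coding transcripts, 0.62 with the most abundant and -0.30 to 0.19 with a library left out (0.19 without library 1). Mdm2 over Btg1 was -0.92, -0.50 and -0.62 with CPM, coding and most abundant transcripts, and -0.03 to 0.20 with a library left out (-0.03 without library 2). Without a change of sign, Tob1 over Tob2 was 0.19, Mdm4 over Trp53 -0.36, Mdm4 over Mdm2 -0.41, Btg2 over Btg1 1.30 and Mdm4 over Gadd45a 2.39 with CPM. CPM uses the same counts as TPM and leaves out the length correction. Causes beyond the settings named were not tested. By estimated counts, Mdm2-201 held 74.3%, Mdm4-210 86.4% and Gadd45a-203 13.5% of their genes.

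List counts below 10 TPM moved by more than 1.5 times. For p53 relatives they were 5 with coding and 6 with most abundant transcripts, and for p53 targets 3 with CPM and 9 with most abundant transcripts, with 19 targets above 10 in CPM. For deadenylation partners they were 0 with TPM rescaled over coding genes, 0 with CPM, 4 with most abundant transcripts, and 0 to 2 with a library left out. For Gadd45 partners they were 1 with rescaled TPM, 1 with CPM, 4 with coding transcripts, and 1 to 2 with a library left out. No paired analysis was possible because there is 1 group. Low counts limit Gadd45a most, at 197 to 285 per library.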
